A study of Gallus gallus with 12 samples.

Results

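The genes described here encode cullin scaffolds and 5 families of substrate receptors of ubiquitin ligases: F-box proteins (FBXO, FBXL, FBXW), kelch proteins (KLHL) and ankyrin repeat proteins with a SOCS box (ASB). Members were taken by symbol alone, from rows of the deposited table with a single platform gene symbol starting with FBXO, FBXL, FBXW or KLHL, or with CUL or ASB followed by a digit. Of 20804 transcript clusters on the array, 12300 carried a single symbol, and 100 of these rows met the rule. They stood for 91 genes, each represented by its brightest row: 25 FBXO, 11 FBXL, 5 FBXW, 28 KLHL, 7 CUL and 15 ASB genes.

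A cullin is an elongated scaffold that holds a RING protein at one end, where the ubiquitin-conjugating enzyme docks, and an exchangeable substrate receptor at the other. CUL1 binds F-box proteins through SKP1, CUL3 binds the BTB domain of kelch proteins directly, and CUL5 binds ASB proteins through the elongins. In striated muscle of mammals the receptors include FBXO32 (atrogin-1), known for its induction in atrophy, KLHL40, which stabilises thin-filament proteins, and ASB2, which targets filamins.

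The birds were 12 Ross 708 broilers, a commercial meat hybrid, of 1 flock with an average live weight of 3.7 kg, and the tissue was Pectoralis major, the breast muscle built almost wholly of fast fibres. In the affected group, 6 birds had white striping and wooden breast, a myopathy in which the fillet is streaked with white and stiff to the touch. The normal group was 6 birds without it. All birds are labelled male and no age is given. RNA of each bird was hybridised to its own whole-transcript array, so n = 6 per group, and birds are numbered within a group in order of deposition. Values are log2 signals per transcript cluster. The number of arrays limits the precision of every difference below.

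The arrays were alike in median signal (4.05 to 4.16), and pairs of them correlated at 0.941 to 0.987 over all clusters. Against the label, 3 normal birds (numbers 1, 4 and 5) carried transcripts of the W chromosome, which only female birds have. Their signal of the W-linked gene HINTW was 8.51 to 9.41, against 2.46 to 2.99 on the other 9 arrays. Differences are therefore also given without these arrays, as 6 affected against 3 normal birds. This was done wherever they turned sign or moved by more than 1.5 times, among the ligase genes whose own difference is given below. Without the 3 arrays, 19 of the 91 differences had the other sign. Of the 36 genes picked by the naming rule, 12 did. Only 2 of these 12, CUL1 and KLHL34, had a difference over its own standard error (SE) with all birds. A difference under its own SE has no clear direction to turn. The share of all clusters with the other sign was not counted. Of the 91 genes, 87 had a chromosome in the gene table used, and 1 of them, FBXO4, was Z-linked. FBXO4, an F-box protein that acts on cyclin D1 in mammals, stood at 3.39 to 3.69 in affected birds and at 3.28 to 3.80 in normal birds, and the groups overlapped. Normal birds with W transcripts averaged 3.37 and the other normal birds 3.59, and the difference of 0.06 was -0.05 without the W-positive arrays. Of 8 listed fast fibre markers 4 were measured, and 3 of these were among the brightest clusters: ACTA1, skeletal actin, had a mean signal of 12.6 in both affected and normal muscle, TNNT3, fast troponin T, 11.7 in both, and TNNI2, fast troponin I, 11.2 in affected and 11.4 in normal muscle. The fourth, PVALB, the calcium buffer parvalbumin, was dim, at 5.19 in affected and 4.36 in normal muscle.

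Many of these ligase genes gave strong signals in breast muscle, and the cullins and the ASB family did so most often. Of the 91 genes, 35 (38.5%) lay in the upper quartile of all clusters by mean signal, against 30.0% of clusters with a single gene symbol, and 15 lay in the top decile. By family, the upper quartile held 6 of 7 cullins, 8 of 15 ASB, 9 of 25 FBXO, 2 of 5 FBXW, 8 of 28 KLHL and 2 of 11 FBXL genes. Signals of different clusters depend on their probes as well as on transcript abundance, so these ranks describe the array signal and not transcript numbers. At the low end, 11 genes had a mean below 2.99, the highest HINTW signal on an array without W transcripts. These were FBXO15, FBXO16, FBXO47, FBXL13, FBXL16, KLHL4, KLHL10, KLHL14, KLHL32, KLHL35 and ASB3. Each of these means is no higher than an array without W transcripts gave for HINTW. Single birds went above 2.99 for some of these genes, such as normal bird 1 for ASB3, at 3.28.

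**Figure D1:**
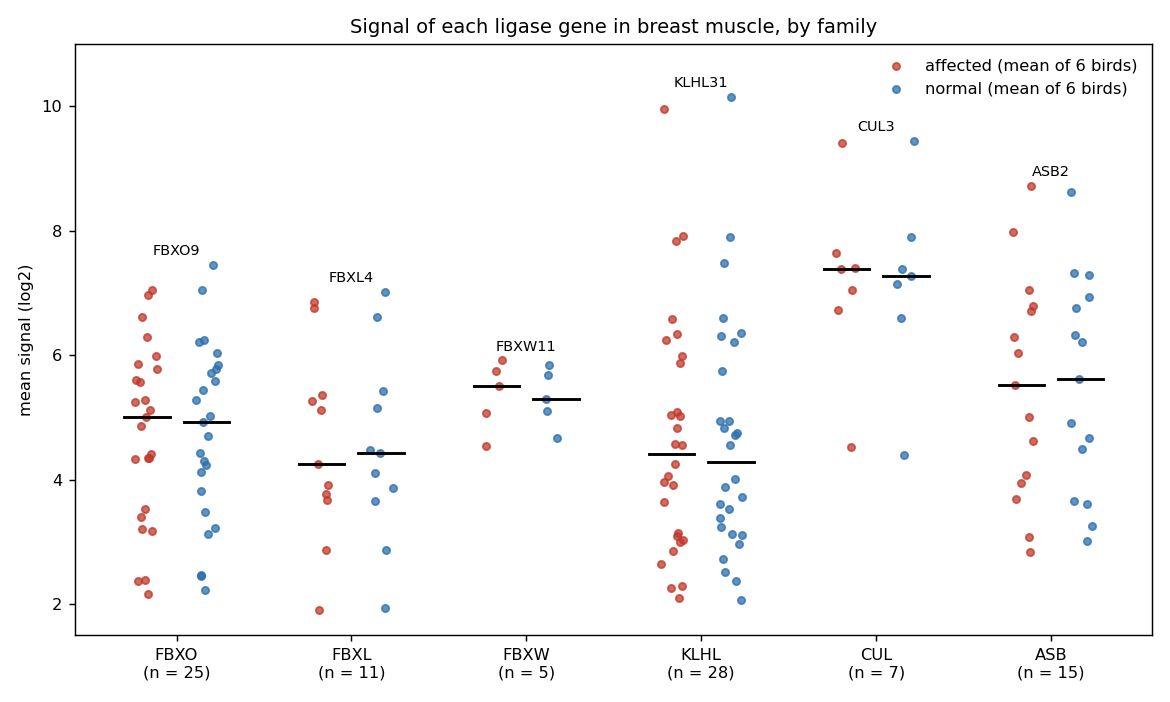
Mean log2 signal of each of the 91 genes, by family, in affected muscle (red, left) and normal muscle (blue, right), each point being 1 gene averaged over 6 birds and each bar a family median. KLHL31, CUL3 and ASB2 stood highest, and the cullins had the highest family median in both groups.

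The brightest gene was KLHL31, a kelch protein of striated muscle that acts on filamin C in mice, at a mean of 9.96 ± 0.39 (SD, n = 6) in affected and 10.2 ± 0.29 in normal birds. CUL3, the scaffold that kelch proteins use, followed at 9.40 ± 0.22 in affected and 9.45 ± 0.23 in normal birds. ASB2 came next, at 8.72 ± 0.32 in affected and 8.62 ± 0.37 in normal birds. KLHL40, CUL5, KLHL34, ASB5, CUL2, CUL1, FBXO9, CUL4A, FBXO22, ASB4, ASB14 and FBXL4 completed the top decile, in that order. The 3 brightest genes differed from each other, and ASB2 from KLHL40, by more than the SD between birds of a group. From KLHL40 to FBXL4, each gene differed from the next by less than the larger SD of the pair.

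Between affected and normal muscle, 2 of the 91 genes fell and none rose in limma's fit over all clusters (Benjamini-Hochberg adjusted p under 0.05). The genes that fell were FBXO41 and FBXL12, both dim and both at an adjusted p of 0.0499. Over all clusters, 131 (0.63%) were called higher and 107 (0.514%) lower. After centring each array on its median these all-cluster counts were 225 and 117; among the members ASB5 then passed as higher and none as lower. With the 3 W-positive arrays left out, 3 of all clusters passed (0.0144%) and no member did. At an unadjusted p under 0.05, 8 members (8.79%) were higher and 9 (9.89%) lower, against 10.6% and 11.5% of all clusters. The members' shares at this looser threshold were thus close to the background of the whole table. Among clusters with a single gene symbol, 13.7% were higher and 9.41% lower, so the members' higher share lay below that background.

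Family medians lay close to 0. The median log2 difference, affected minus normal, was -0.02 for FBXO, -0.0067 for FBXL, 0.06 for FBXW, 0.0098 for KLHL, 0.01 for CUL and 0.03 for ASB genes, against -0.03 over all clusters. For clusters with a single gene symbol the median difference was -0.0008. Positive differences were found in 10 of 25 FBXO, 5 of 11 FBXL, 3 of 5 FBXW, 15 of 28 KLHL, 4 of 7 CUL and 8 of 15 ASB genes. In 86 of 91 genes the difference was under 0.5 in size, and so it was in 19495 of the 20804 clusters. The 5 others were FBXL8 and 4 ASB genes: ASB5 and ASB11 with positive differences, and ASB4 and ASB12 with negative ones. ASB genes had a median absolute difference of 0.18, against 0.06 for FBXO genes and 0.14 over all clusters. Their median SD between birds of a group was also the highest of the 6 families, 0.29 against 0.20 over all clusters.

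**Figure D2:**
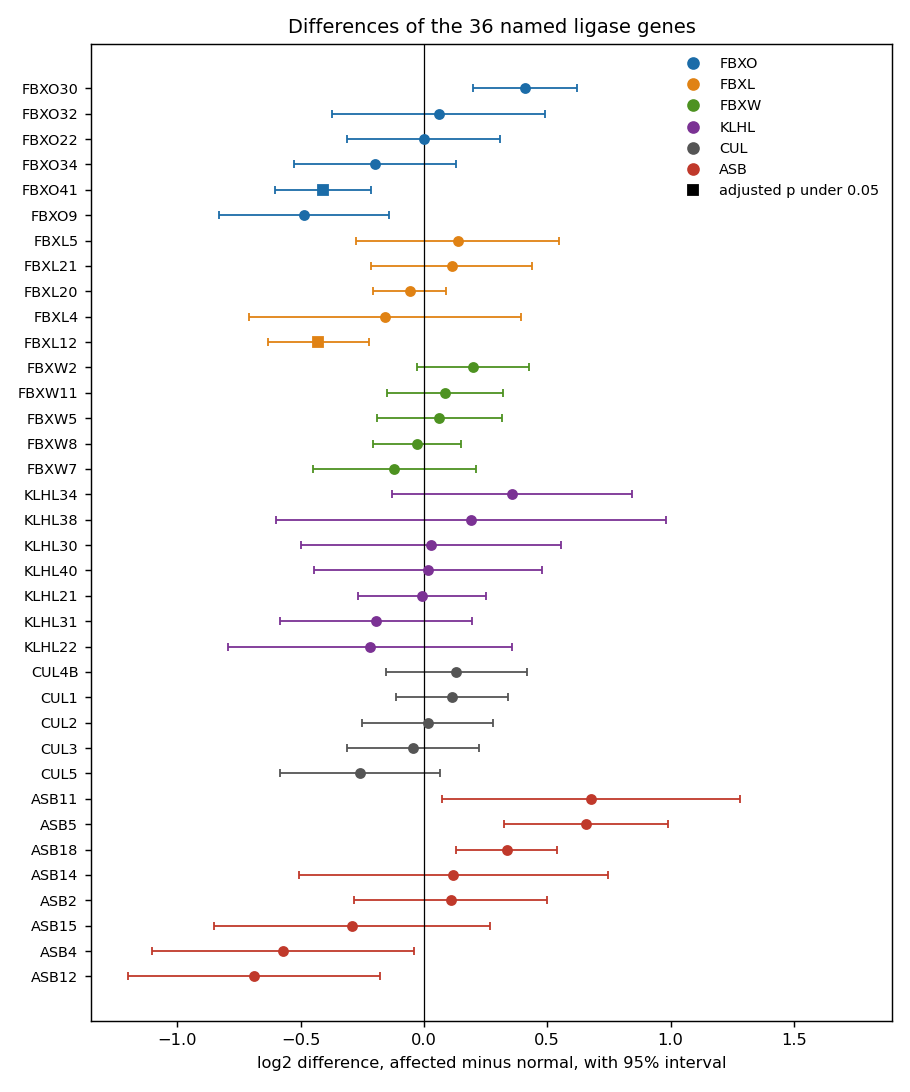
Log2 difference, affected minus normal, with 95% intervals from limma's moderated errors (n = 6 per group), for the 36 genes picked by the naming rule, coloured by family. Squares mark the 2 genes with an adjusted p under 0.05, FBXO41 and FBXL12, and the ASB genes spread furthest to both sides.

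Among the scaffolds, no cullin passed the test, against 0.63% of all clusters called higher and 0.514% lower. A list of 7 would hold few or no calls at these shares. All 7 cullin differences were within 0.26 of 0. CUL3 ran from 9.13 through a median of 9.43 to 9.67 in affected birds and from 9.11 through 9.46 to 9.79 in normal birds. The groups overlapped almost fully, and the difference of -0.04 had a 95% interval from -0.31 to 0.22. Without the arrays with W transcripts it was -0.23. CUL5, the scaffold of ASB ligases, showed the most negative cullin difference, at -0.26 ± 0.15 (SE; 95% interval -0.58 to 0.07, adjusted p = 0.324 in limma's fit), and -0.39 without the W-positive arrays. Its level was 7.65 ± 0.32 (SD, n = 6; lowest 7.25, median 7.72) in affected and 7.91 ± 0.24 (lowest 7.50, median 7.97) in normal birds. CUL1, the scaffold for F-box proteins, was at 7.38 ± 0.13 in affected and 7.27 ± 0.22 in normal birds (SD, n = 6). Its difference of 0.11 turned to -0.02 without the arrays with W transcripts. CUL2, which holds the von Hippel-Lindau receptor, was at 7.41 and 7.39, CUL4B at 6.73 and 6.60 and CUL4A, which like CUL4B uses DDB1 as adaptor, at 7.06 and 7.15 in affected and normal muscle. Without the W-positive arrays these differences were -0.11 for CUL2, -0.03 for CUL4B and -0.22 for CUL4A.

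The cullins also differed between birds of the same group. Within the normal group, 6 of 7 cullins were lowest in bird 1 and 5 of 7 highest in bird 2. The median cullin deviation from the 12-bird mean was -0.37 in normal bird 1 and 0.26 in normal bird 2. In affected birds it ran from -0.21 in bird 4 to 0.22 in bird 5. Over all 91 genes, normal bird 1 was the lowest normal bird for 40 genes (44.0%), although it was lowest for 20.2% of all clusters. Normal bird 2 was the highest normal bird for 28 genes (30.8%), against 18.7% of all clusters. Bird 1 is one of the 3 birds with W transcripts and bird 2 is not. Birds 4 and 5, which also carry them, were lowest for 22 (24.2%) and 4 (4.40%) of the genes, against 18.6% and 12.1% of all clusters.

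Among the F-box genes, FBXO41, which in mice is expressed mainly in neurons, had signals of 3.09 to 3.59 (median 3.46) in affected birds and 3.69 to 3.95 (median 3.82) in normal birds. Every affected bird lay below every normal bird. The difference was -0.41 ± 0.09 (SE), a fold of 0.753, with an adjusted p of 0.0499 in limma's fit. FBXL12, a leucine-rich-repeat F-box protein, had signals of 3.45 to 3.92 (median 3.69) in affected birds and 3.98 to 4.29 (median 4.12) in normal birds. Again the groups did not overlap, and the difference was -0.43 ± 0.10 (SE), a fold of 0.743 (adjusted p = 0.0499). Without the arrays with W transcripts the differences were -0.44 and -0.45, with adjusted p-values of 0.137 and 0.145. With 1 bird left out at a time, both genes passed only without normal bird 5 or affected bird 1, and the adjusted p ran from 0.0333 to 0.103 for FBXO41 and from 0.0306 to 0.102 for FBXL12. For scale, ATP5F1AW, another W-linked gene, gave 3.67 ± 0.34 (SD, n = 9) on arrays without W transcripts, and whether FBXO41 and FBXL12 lie above background was not tested.

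Separation of all birds without overlap was seen in 5 of the 91 genes, 3 above and 2 below, against 1.06% and 1.11% of all clusters. The 2 below were FBXO41 and FBXL12, and ASB5 was the brightest of the 3 above. The others, FBXL8 and KLHL15, fell outside the naming rule and are named after their values were seen. FBXL8 stood at 4.79 to 5.79 in affected and 3.92 to 4.72 in normal birds (difference 0.70 ± 0.18, SE; adjusted p = 0.0676 in limma's fit). KLHL15, an adaptor for CUL3, stood at 4.17 to 4.34 in affected and 3.51 to 4.15 in normal birds (difference 0.37 ± 0.11, SE; adjusted p = 0.0904). KLHL15 was dim, with a mean of 4.07 over all birds. It varied little among affected birds, with an SD of 0.06, and more among normal birds, with an SD of 0.27. With 3 normal birds left, KLHL25 and ASB4 were also separated, both below, giving 3 above and 4 below against 4.55% and 4.15% of all clusters. The 5 genes could not drop out here, since leaving out birds cannot make separated groups overlap. The difference of KLHL25 was -0.47 without the W-positive arrays, against -0.14 with all birds.

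**Figure D3:**
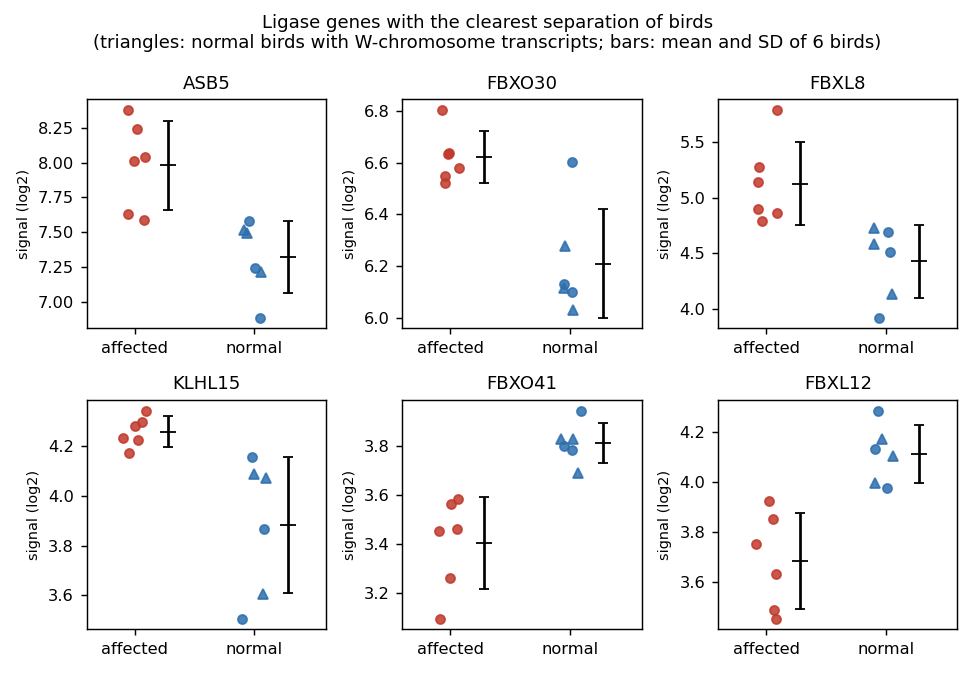
Log2 signal of 6 genes in each affected bird (red, left) and each normal bird (blue, right), with the mean and SD of 6 birds beside the points and triangles for normal birds with W transcripts. The groups do not overlap for ASB5, FBXL8, KLHL15, FBXO41 and FBXL12, and for FBXO30 only normal bird 2, at 6.60, reaches the affected range.

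FBXO30 (MUSA1), an F-box protein required for full muscle loss after denervation in mice, had signals of 6.52 to 6.80 (median 6.61) in affected birds and 6.03 to 6.60 (median 6.12) in normal birds. All affected birds but the lowest 3 lay above the whole normal range, and 5 of 6 normal birds lay below the whole affected range. The difference of 0.41 ± 0.10 (SE; 95% interval 0.20 to 0.62) missed the threshold over all clusters, at an adjusted p of 0.0568 in limma's fit. It passed without normal bird 2 (adjusted p = 0.0287), and over its alternatives with 1 bird left out the adjusted p ran from 0.0287 to 0.109. Without the arrays with W transcripts the difference was 0.34 (adjusted p = 0.203).

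FBXO32, the atrophy ligase, did not separate the groups. It ran from 5.98 through a median of 6.18 to 6.81 in affected birds and from 5.77 through 6.23 to 6.90 in normal birds. The difference was 0.06 ± 0.20 (SE), with a 95% interval from -0.37 to 0.49 and an adjusted p of 0.889 in limma's fit. The interval spans differences of either sign. Normal birds with W transcripts averaged 5.90 and the other normal birds 6.58, and without the W-positive arrays the difference turned to -0.28. TRIM63 (MuRF1), the RING ligase usually measured beside FBXO32 in atrophy and named here for that role, was at 7.44 in affected and 7.32 in normal muscle (difference 0.12 ± 0.18, SE; adjusted p = 0.730), and its difference turned to -0.13 without those arrays.

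FBXO9, which in human cells acts on the kinase cofactors TEL2 and TTI1, was the brightest F-box gene, at 6.97 ± 0.26 (SD, n = 6) in affected and 7.45 ± 0.34 in normal birds. In 4 affected birds the level lay under every normal bird, and affected birds 1 and 3, at 7.42 and 7.09, lay within the normal range. The difference was -0.49 ± 0.16 (SE; adjusted p = 0.111 in limma's fit), and -0.55 without the arrays with W transcripts. FBXO22, which targets histone demethylases in mammals, was at 7.05 in both groups, with a difference of -0.17 without those arrays. FBXL4, a mitochondrial F-box protein that restrains mitophagy, varied widely within both groups, from 6.10 to 7.40 in affected and from 6.18 to 7.48 in normal birds, with a difference of -0.16, or -0.45 without those arrays. FBXL5, the iron-sensing receptor for IRP2, stood at 6.51 to 7.16 in affected and 6.23 to 7.50 in normal birds, and its difference of 0.14 turned to -0.12 without those arrays. The 5 FBXW genes included FBXW7, the receptor for cyclin E and MYC, at 4.55 and 4.67, and FBXW11, a receptor for beta-catenin and I-kappa-B, at 5.92 and 5.84 in affected and normal muscle. Without the W-positive arrays the difference of FBXW7 was -0.31, against -0.12, and that of FBXW11 turned to -0.02, against 0.09. None of the 5 had an unadjusted p under 0.05, against 10.6% of all clusters higher and 11.5% lower. At these shares a list of 5 could well hold none.

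Of 22 listed F-box, kelch, cullin and ASB genes described in muscle, 16 were measured, and 13 of these lay in the upper quartile of signal. None passed the test, against 0.63% of all clusters called higher and 0.514% lower. The median difference was 0.08, against -0.03 over all clusters and -0.0008 over clusters with a single gene symbol. Without the arrays with W transcripts most of the 16 differences were negative, and so was their median. Of the 16, 4 were higher and 1 lower at an unadjusted p under 0.05, against 10.6% and 11.5% of all clusters. For clusters with a single gene symbol these shares were 13.7% and 9.41%. Among the kelch genes, KLHL31 and KLHL40 were the brightest. KLHL31 ran from 9.46 through a median of 9.96 to 10.52 in affected and from 9.65 through 10.19 to 10.50 in normal birds, with a difference of -0.19 ± 0.18 (SE; 95% interval -0.58 to 0.20). KLHL40 ran from 7.68 through 7.82 to 8.31 in affected and from 7.17 through 7.83 to 8.82 in normal birds, with a difference of 0.02 ± 0.21 (SE; 95% interval -0.45 to 0.48). Without the arrays with W transcripts the differences were -0.41 for KLHL31 and -0.24 for KLHL40. For both genes the groups overlapped over most of their range. KLHL34 had a difference of 0.36 ± 0.23 (SE; adjusted p = 0.364 in limma's fit), which turned to -0.02 without the arrays with W transcripts. In normal birds it averaged 7.10 with W transcripts and 7.87 without. KLHL38, which lies next to FBXO32 on chromosome 2 in the assembly GRCg7b, was the most variable of all 91 genes. It ran from 2.85 to 5.47 in affected birds, the highest being bird 3, and from 3.12 to 4.26 in normal birds, and its difference of 0.19 turned to -0.10 without the W-positive arrays. KLHL22, a CUL3 adaptor in mitosis and nutrient sensing, had a difference of -0.22, and of -0.57 without the arrays with W transcripts.

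**Figure D4:**
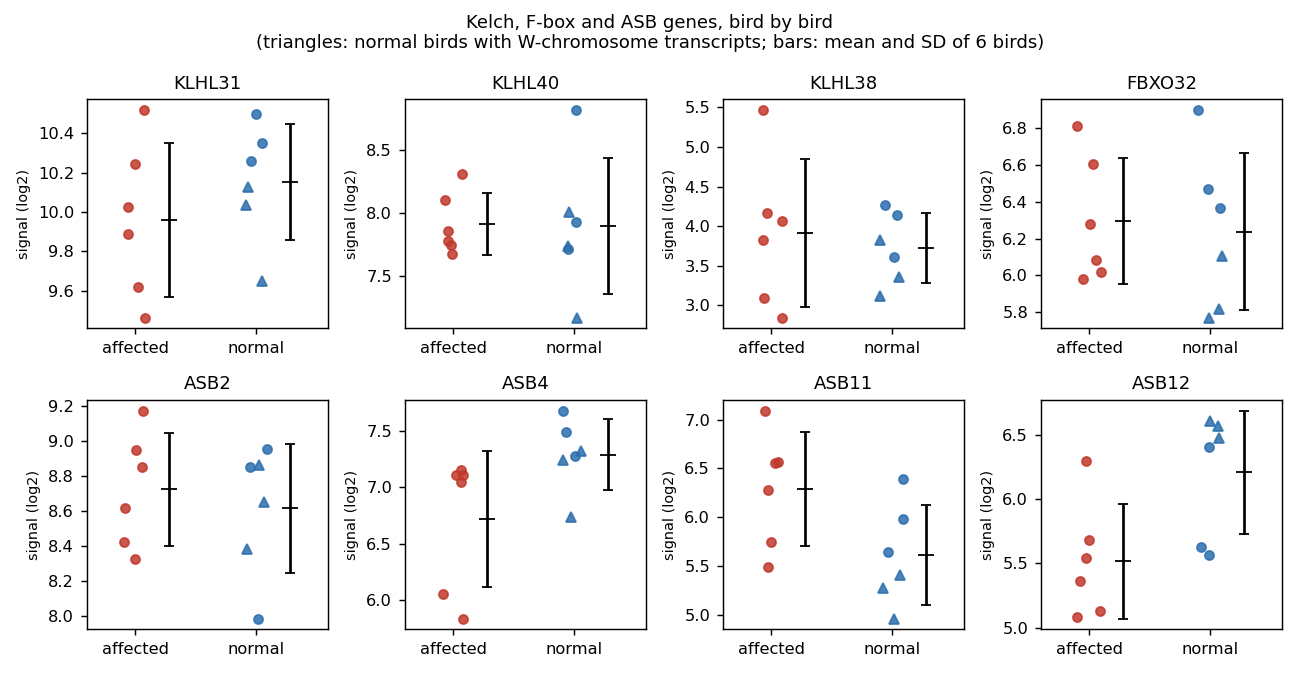
Log2 signal of 8 kelch, F-box and ASB genes in each affected bird (red, left) and each normal bird (blue, right), with the mean and SD of 6 birds and triangles for normal birds with W transcripts. The groups overlap for all 8 genes, and for ASB12 the normal birds fall into 4 high ones and 2 low ones at 5.63 and 5.56.

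Of the 5 genes with a difference over 0.5 in size, 4 were ASB genes, with both signs. ASB5, which is expressed in muscle and in muscle progenitors of mammals, ran from 7.59 through a median of 8.02 to 8.38 in affected birds and from 6.89 through 7.37 to 7.58 in normal birds. The lowest affected bird was only just above the highest normal bird. The difference was 0.66 ± 0.15 (SE; 95% interval 0.32 to 0.99), a fold of 1.58, at an adjusted p of 0.0553 in limma's fit. Over the fits with 1 bird left out the adjusted p ran from 0.0340 to 0.117, and the value below 0.05 came without affected bird 1. Without the arrays with W transcripts the difference was 0.74 (adjusted p = 0.135).

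ASB11, which in zebrafish acts on Notch signalling in muscle progenitors, ran from 5.49 through 6.42 to 7.09 in affected and from 4.96 through 5.52 to 6.39 in normal birds. Its difference of 0.68 ± 0.28 (SE; adjusted p = 0.178) was 0.28 without the arrays with W transcripts, which were the 3 lowest normal birds. ASB12 ran from 5.09 through 5.45 to 6.29 in affected and from 5.56 through 6.44 to 6.60 in normal birds. Its difference of -0.69 ± 0.24 (SE; adjusted p = 0.122 in limma's fit) was -0.35 without those arrays, which were the 3 highest normal birds. ASB11 and ASB12 thus moved by more than 1.5 times with the same 3 arrays.

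ASB4, a receptor of the developing vasculature in mice, ran from 5.84 through 7.08 to 7.16 in affected and from 6.74 through 7.30 to 7.68 in normal birds. Affected birds 4 and 6, at 5.84 and 6.05, stood below the other 10 birds. The difference of -0.57 ± 0.25 (SE; adjusted p = 0.195) was -0.76 without the arrays with W transcripts. ASB2 ran from 8.33 to 9.17 in affected and from 7.99 to 8.95 in normal birds, with a difference of 0.11 ± 0.18 (SE; 95% interval -0.28 to 0.50). ASB14 and ASB15 also varied between birds, ASB14 from 6.00 to 7.95 in affected and from 6.66 to 7.26 in normal birds. ASB15, described in bovine muscle growth, stood at 6.04 ± 0.57 (SD, n = 6) in affected and 6.33 ± 0.44 in normal birds, and its difference of -0.29 was -0.62 without the arrays with W transcripts. That of ASB14 was 0.12, and 0.08 without them. ASB18 was dim, at 3.62 to 4.18 in affected and 3.53 to 3.64 in normal birds (difference 0.33 ± 0.09, SE; adjusted p = 0.0805).

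Most of the genes that varied widely between birds were kelch and ASB genes. Of the 91 genes, 13 (14.3%) had a within-group SD in the top decile of all clusters, against 7.28% of clusters with a single symbol: 6 KLHL, 5 ASB, 1 FBXO and 1 FBXL gene. The kelch genes were KLHL22, KLHL29, KLHL30, KLHL34, KLHL38 and KLHL40, and the ASB genes were ASB4, ASB11, ASB12, ASB14 and ASB15. Brighter clusters vary more on these arrays as a whole, with a median SD of 0.23 for clusters at a mean of 5 or more and 0.19 for dimmer ones. The 43 members at a mean of 5 or more had a median SD of 0.27, and the 48 dimmer members 0.18.

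Removing the 3 normal arrays with W transcripts moved the family medians downward. The median difference became -0.05 for FBXO, -0.07 for FBXL, -0.05 for FBXW, -0.01 for KLHL, -0.11 for CUL and -0.03 for ASB genes, against -0.03 over all clusters. Negative differences then numbered 55 of 91, against 46 with all birds, and 6 of 7 cullins had negative differences. Of all 20804 clusters, 11659 were then negative, against 11663 with all birds. At an unadjusted p under 0.05, 6 of the 91 genes were higher and 8 lower, against 1914 and 1771 of the 20804 clusters. None of the 91 passed the adjusted threshold.

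**Figure D5:**
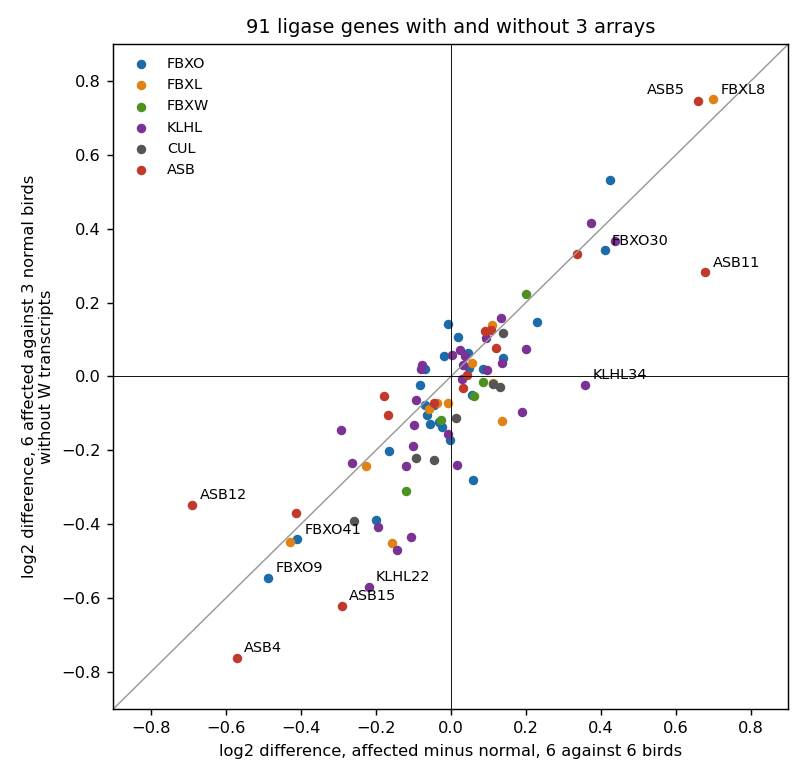
Log2 difference, affected minus normal, of the 91 genes with all 12 birds (horizontal axis) against the same difference with 6 affected and 3 normal birds without W transcripts (vertical axis), the diagonal marking equal values. ASB5, FBXL8, FBXO30, FBXO41 and FBXO9 stay near the diagonal, whereas ASB11, ASB12 and KLHL34 lie closer to 0 on the vertical axis.

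Partners that assemble and switch these ligases did not pass the test either. Of 29 listed adaptors, RING proteins, NEDD8 pathway enzymes and COP9 signalosome subunits, 21 were measured by symbol and none passed the test. Over all clusters 0.63% were called higher and 0.514% lower. Of the 21, 1 was higher and 3 lower at an unadjusted p under 0.05, against 10.6% and 11.5% of all clusters. For clusters with a single gene symbol these shares were 13.7% and 9.41%. The median difference of the 21 partners was -0.0081. CAND1, which exchanges the receptors on CUL1, was at 5.84 in affected and 5.36 in normal muscle (difference 0.48 ± 0.15, SE; adjusted p = 0.103 in limma's fit). COPS4, a signalosome subunit, was at 6.50 and 6.78, and DCUN1D2, which promotes attachment of NEDD8 to cullins, had a difference of -0.32 ± 0.12 (SE). SKP1, the adaptor between CUL1 and F-box proteins, was level, at 8.21 in affected and 8.17 in normal muscle, and is named outside the rule, after its values were seen.

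Among 14 measured relatives whose symbols lie outside the rule, 1 rose, against 0.63% of all clusters. SKP2, the F-box receptor for the cell cycle inhibitor p27, ran from 5.32 to 5.58 in affected and from 4.82 to 5.20 in normal birds, without overlap. The difference was 0.43 ± 0.08 (SE; adjusted p = 0.0389 in limma's fit). SKP2 is Z-linked, and without the arrays with W transcripts the difference was 0.31 (adjusted p = 0.160). SPOP, a BTB receptor of CUL3, was at 6.32 in affected and 5.97 in normal muscle (adjusted p = 0.0922). KBTBD13, a kelch relative of muscle, was at 3.43 and 3.75.

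Over all clusters 0.63% were called higher and 0.514% lower, so short lists hold few or no calls. Of 11 other measured ubiquitin ligases of muscle, none passed. The smallest p-values among them belonged to RNF114, at 6.49 in affected and 6.22 in normal muscle (difference 0.27, and 0.16 without the arrays with W transcripts), MARCH5, a mitochondrial ligase, at 6.44 and 6.65, and MDM2, the p53 ligase, at 6.64 and 6.79. Of 13 measured substrates and clients, none passed either. NFE2L2, the antioxidant factor degraded through CUL3, was at 3.72 in affected and 4.25 in normal muscle (difference -0.54 ± 0.15, SE; adjusted p = 0.0757 in limma's fit). JAK2, a Z-linked kinase, was at 5.88 and 5.54, and MYC at 4.98 and 4.72.

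Sums of marker signals overlapped between the groups for every list, though a sum is carried by the brightest markers of its list. The median log2 difference was 1.23 for fibroblast and matrix, 1.02 for slow or cardiac muscle and 0.75 for leukocyte markers. It was 0.47 for erythrocyte, 0.11 for adipocyte, 0.0066 for satellite cell, -0.02 for fast fibre and -0.05 for endothelium markers. The summed linear signal of 6 measured fibroblast and matrix markers was 2978 to 9569 in affected and 944 to 3821 in normal birds, with COL12A1, a fibril-coating collagen, called higher. That of 4 leukocyte markers was 701 to 1405 in affected and 279 to 934 in normal birds, and none of them was called. Among 8 slow or cardiac muscle markers 2 were called higher, the stress-responsive Z-disc protein CSRP3 and myoglobin (MB), and the sum ran from 1895 to 6369 in affected and from 2670 to 4194 in normal birds. The brightest of the 8, TNNC1, was at 11.3 in affected and 11.6 in normal muscle. No marker was called among 5 of endothelium (sum 529 to 619 in affected, 544 to 771 in normal birds), 3 of adipocytes (265 to 413 and 226 to 329), 2 of satellite cells (381 to 529 and 326 to 548) and 2 of erythrocytes (161 to 532 and 127 to 266). The 4 fast fibre markers summed to 11232 to 12451 in affected and 11156 to 12917 in normal birds. Of these markers MYL3 alone, a slow myosin light chain, had a mean below 2.99. In whole muscle, fewer cells of a type and less RNA per cell cannot be told apart. The part of other cell types in the differences of ASB5, FBXO30, FBXO41 and FBXL12 was not tested.

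Position showed little sharing between the members that could be placed. On the assembly GRCg7b, chromosome 3 held 14 of the 87 placed genes, chromosome 2 held 12, and chromosomes 1 and 4 held 11 each. Among these 87 genes, only 2 pairs lay within 3 places of each other in the order of protein-coding genes. They were FBXO32 beside KLHL38 on chromosome 2 and FBXO21 near FBXW8 on chromosome 15. ASB11, ASB14, FBXL13 and KLHL35 had no position, so whether they neighbour other members was not examined. The differences of FBXO21 and FBXW8 were -0.02 and -0.03, against 0.06 and -0.12 without the W-positive arrays. More than 1 row existed for 8 genes. CUL9, FBXO5, FBXO38, FBXO42, KLHL20 and KLHL35 had a dimmer row of opposite sign, and no row of these genes passed the test.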

How the data were processed

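Total RNA from 12 birds (150 ng each) was labelled with an Affymetrix whole-transcript kit and put on separate arrays, per the labels' protocols. The values deposited by the authors were read as log2 expression per transcript cluster, with the log base inferred from their range of 1.04 to 12.9. The submitters' processing notes name Partek without a version. For background correction, summarization, scaling and build, the step is not given in the sources used here.

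Genes were named from the platform annotation. Chromosomes and gene order came from a RefSeq gene table of GRCg7b, through Entrez IDs. Differences, affected minus normal, were fitted over all 20804 clusters with limma 3.58.1 in R 4.3.3 (lmFit, eBayes; 10 residual and 3.39 prior degrees of freedom) and adjusted by Benjamini-Hochberg, threshold 0.05. Standard errors and 95% intervals are limma's moderated ones. Groups came from the phenotype label, and replicate numbers pair no birds. The fit was tested on simulated data with independent errors, where changes were placed only in clusters at a mean over 5. That test does not cover dim genes such as FBXO41 and FBXL12. Figures were drawn with matplotlib 3.10.9.

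The members, lists and tests were chosen with earlier results of these data known. Named members were those called, those at a mean of at least 5 without overlap, the 4 brightest and the 3 largest differences (mean at least 5) of each family, and 16 measured genes of a muscle ligase list. Of that list FBXO40, FBXL22, KLHL41, KLHL33, ASB10 and ASB16 were not analysed here. Up to 3 genes of each other list were named by p, and TRIM63 and SKP1 for their role. Arrays with a HINTW signal above 6 were taken to hold W transcripts. Alternatives were other scalings, filters on dim clusters, variance models, array weights, and fit and adjustment over clusters with 1 symbol. Further ones were means of a gene's rows, updated symbols, and leaving out birds.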

Additional observations from a re-analysis of the deposited data

Results flagged for a closer look

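FBXL5, the iron-sensing F-box protein, stood apart in normal bird 2, at 7.50, with the next normal bird at 6.68 and the lowest at 6.23. The gap was 0.648 of the group's range. It was the only such sample among the 72 groups of 6 birds examined for the named genes. Chance alone gives about 1 in 20, so 1 flag in 72 groups is no more than chance gives. Normal bird 2 was also the highest normal bird for 28 of the 91 genes.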

How the results depend on the processing

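Over all 20804 clusters, 131 were called higher and 107 lower as deposited, 122 and 107 after quantile normalization, and 225 and 117 after centring. Without the W-positive arrays 3 clusters passed. All-cluster calls are not given here for the other settings, so the member counts there have no background. Calls among the 91 genes depended on the setting. The count called higher, 0 with the values as deposited, was 1 with arrays centred on their median, 2 with clusters above the lower quartile only, 3 with clusters above the median level only, 1 with array weights and 2 when adjusted over clusters with 1 symbol; leaving out 1 bird gave 0 to 2. The count called lower, 2 as deposited, was 0 after quantile normalization, after centring, with clusters above the median level only (which leaves out FBXO41 and FBXL12), with trended robust variances, with the mean of a gene's rows, without the W-positive arrays, and with both normal bird 2 and affected bird 4 left out; leaving out 1 bird gave 0 to 2. FBXO41 and FBXL12 kept a negative difference in every fit that held them, at adjusted p from 0.0306 to 0.103 with 1 bird left out, and stayed past the threshold there only without normal bird 5 or affected bird 1. ASB5 and FBXO30 both passed above the lower quartile, above the median level and over clusters with 1 symbol; ASB5 also passed after centring and without affected bird 1, and FBXO30 with array weights and without normal bird 2. FBXL8 passed above the median level and ASB18 without affected bird 1. With clusters above the median only, 61 genes were left, 5 were higher and 5 lower at an unadjusted p under 0.05, 2 did not overlap and 19 lay in the upper quartile of that smaller table. Genes without overlap numbered 8 with normal bird 2 and affected bird 4 left out, and 5 to 8 with 1 bird left out. Leaving out birds cannot lower this count. Over all clusters the shares were 1.06% above and 1.11% below with all birds, and 4.55% and 4.15% without the W-positive arrays. They were not counted for the other settings, so these member counts have no background. The FBXL median was 0.0559 after quantile normalization, 0.0550 with clusters above the lower quartile only and -0.0724 without the arrays with W transcripts. Without those arrays 12 of the 36 named genes had the other sign; of these CUL1 (-0.0217) and KLHL34 (-0.0229) had exceeded their own SE with all birds, and the others were FBXO32, FBXL5, FBXL21, FBXW5, FBXW11, KLHL30, KLHL38, KLHL40, CUL2 and CUL4B. The cause of these changes was not tested. Filters and the setting with 1 symbol refit fewer clusters, which alters the moderated errors as well as the number of tests. Updated symbols gave the same 91 genes and calls. Of 432 differences of named genes with 1 bird left out, 409 kept their side of the threshold and, where larger than their error, their direction. No paired analysis was possible because the labels give no shared replicate numbers. Low signal limits dim genes such as FBXO41, FBXL12, ASB18 and KLHL15, and outside the rule NFE2L2 and KBTBD13.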
